A study of Mus musculus with 9 samples.

Results

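Replication-dependent histone genes were examined in skin of BALB/c nude mice, a hairless, athymic strain. They were taken as the rows whose gene symbol begins with H2ac, H2bc, H3c or H4c followed by a digit, which gave 64 of the 57180 genes in the table. Of these, 54 passed the low-count filter and were tested, and the same number, 54, had at least 1 CPM (counts per 1000000 counts of a library) in at least 3 of the 9 libraries. The libraries formed 3 groups of 3. UVB-hCOL3A1 skin had received ultraviolet B on the back every other day for 8 weeks, at 60 mJ/cm² at first and 240 mJ/cm² at the end, and hCOL3A1, a type III collagen mRNA by the series title. UVB-Saline skin had received the same irradiation and saline. Skin was collected at day 28 by the series text, which does not say from when that day is counted. NoUVB skin was not irradiated, and its label names neither saline nor hCOL3A1, so effects of irradiation and of saline cannot be told apart. The labels name no group given the carrier of hCOL3A1 or another RNA, and the animal behind each library is not stated. The p-values therefore measure the spread between these libraries, which may be technical. The sources used here do not give age, sex, or the dose and route of hCOL3A1.

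Core histones H2A, H2B, H3 and H4 form the spool around which DNA is wound, and a cell that copies its genome needs a matching supply of new histone protein. The replication-dependent genes provide it: they are transcribed mainly in S phase, from many near-identical, mostly intronless copies in clusters, under the coactivator NPAT. Their mRNAs end in a conserved stem-loop in place of a poly(A) tail. The stem-loop binding protein SLBP and the U7 snRNP direct the cut that makes this end, and the mRNAs are degraded when DNA synthesis stops. In skin, dividing cells are found mainly in the basal epidermis and in the hair follicle.

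The family was widely detected, and no member passed the test in any comparison. UVB-hCOL3A1 against UVB-Saline gave 0 of 54 tested members called at an adjusted p under 0.05 in edgeR's quasi-likelihood test (all genes, 0%). UVB-Saline against NoUVB gave 0 of 54 (all genes, 0.0175%), and UVB-hCOL3A1 against NoUVB gave 0 of 54 (all genes, 0.0408%). With so few calls among all genes, these counts do not set the histone genes apart. DESeq2 also called 0 members in each comparison, of 44, 50 and 50 with an adjusted p in the same order. It called 173, 100 and 269 genes in all. No share of all genes is given for DESeq2, so its 0 does not set the histone genes apart either. Limma voom called 0 members of 54 in each comparison and 0, 2 and 0 genes in all. What varied was the level of the family as a whole from library to library within groups.

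The stem-loop, the end that is bound by SLBP, could be read in the reference transcripts of many members. Transcripts were matched by gene ID in GENCODE vM21 for all 64 members. The pattern searched, on the sense strand, was GG, 2 free bases, CT, 4 free bases, AG, 2 free bases and CC, with the free bases of the stem required to pair. It was present in 42 of 64 members (65.6%), against 0.808% of 21901 protein-coding genes, of which the members are a part. Some models end before the 3′ end of the mRNA, so a missing match there says nothing of the gene. Other models without a match are long, such as that of H2bc21 at 2620 bases, and the reason was not tested. The pattern itself fixes much of each match, so likeness among the matches is partly built in. The form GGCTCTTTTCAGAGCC was found in 23 members, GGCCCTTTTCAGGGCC in 7 and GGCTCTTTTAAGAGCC in 5. The stem-loops of 7 members that represent the 4 classes are given as DNA letters, with the stem-loop in capitals and 5 flanking bases on each side.
H2ac19: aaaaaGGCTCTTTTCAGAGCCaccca
H2bc6: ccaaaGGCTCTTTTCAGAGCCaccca
H2bc3: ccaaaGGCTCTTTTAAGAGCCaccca
H3c15: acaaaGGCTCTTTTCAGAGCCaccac
H4c4: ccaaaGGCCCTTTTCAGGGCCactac
H4c16: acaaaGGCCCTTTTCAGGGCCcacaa
H4c11: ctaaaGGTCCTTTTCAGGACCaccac
The H2A, H2B and H3 copies shown carry 2 forms between them, and the H4 copies 2 others. In 7 members, among them H4c16 and H2ac6, the annotated model runs more than 1000 bases past the stem-loop.

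The promoters differ between classes. RefSeq promoter windows (250 bases before the start, build GRCm38.p6, which is not the build of the count table) were at hand for 52 members. The letters CCAAT, on either strand, were in 42 of 52 (80.8%), against 37.5% of all genes with a window. They were in 17 of 17 H2A, 14 of 14 H2B, 8 of 10 H3 and 3 of 11 H4 windows. TATAAA was in 24 of 52 (46.2%), against 14.3% of all genes. The octamer ATTTGCAT was in 13 of 52 (25%), against 1.81% of all genes. Those 13 were 6 H2A and 7 H2B windows, with none among the 10 H3 and 11 H4 windows. In 9 pairs an H2A and an H2B gene face away from each other with overlapping windows, so their matches are not independent. The promoters of H2bc18, the H2B member with the most counts, and of H4c4, a well-counted H4 member, show the octamer contrast, with each match to the 3 motifs in capitals (ATTGG is CCAAT on the other strand). H4c4 is 1 of the 3 H4 windows with CCAAT. The H2bc18 window is chr3:96269450-96269699 and the H4c4 window chr13:23581318-23581567, both on the plus strand.
H2bc18: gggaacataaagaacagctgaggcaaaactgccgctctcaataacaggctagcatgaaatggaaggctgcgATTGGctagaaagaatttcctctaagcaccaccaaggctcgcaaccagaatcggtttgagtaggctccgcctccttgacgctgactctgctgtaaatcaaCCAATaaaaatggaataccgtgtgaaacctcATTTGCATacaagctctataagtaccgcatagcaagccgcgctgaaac
H4c4: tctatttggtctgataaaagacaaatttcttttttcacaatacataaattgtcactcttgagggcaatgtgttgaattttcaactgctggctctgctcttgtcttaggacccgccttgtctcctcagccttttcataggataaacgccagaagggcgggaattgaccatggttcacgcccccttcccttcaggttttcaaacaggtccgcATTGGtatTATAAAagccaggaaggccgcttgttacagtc
A match to these letters is a description of the window, not of binding.

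All members were accounted for. The tested ones were 15 of 20 H2A, 16 of 19 H2B, 11 of 12 H3 and 12 of 13 H4 genes. By the reference annotation, 50 members lie on chromosome 13, 10 on chromosome 3, 3 on chromosome 11 and 1, H4c16, on chromosome 6. Listed at 0 in all 9 libraries were 5 members, the pseudogene H2ac14-ps and the protein-coding H2ac23, H2bc24, H3c14 and H4c17. A further 5 were above 0 but not tested, namely H2ac1, H2ac7, H2bc1 and the pseudogenes H2ac5-ps and H2bc26-ps, with at most 12.54 estimated counts in a library. H2ac1 and H2bc1, known as testis-specific histones, did not exceed 0.40 and 6.85 estimated counts.

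Near-identical copies limit what a value for 1 gene means. Every 150-base window of the GENCODE vM21 transcripts, the length of a read, was compared with all other genes for exact matches on the sense strand. The counts were made on another build, GRCm39, with an annotation that is not stated, so sharing there may differ. Of the 54 tested members, 46 shared at least 1 window with another gene, 16 shared most of theirs, and 8 shared none. The 4 protein-coding members at 0 are such copies: windows of H2ac23 are shared with H2ac24, of H2bc24 with H2bc23, of H4c17 with H4c18, all 3 of which were tested, and all windows of H3c14 with the predicted gene Gm20634. A 0 there does not show that the copy is silent, since the estimate can place shared reads on either gene. Of the tested members, only H4c16 had whole-number counts in all 9 libraries. Levels are given in TMM-scaled CPM, not per length, and are compared between libraries and not between genes.

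The summed level of all 64 members was 814, 1059 and 692 CPM in the UVB-hCOL3A1 libraries, 1195, 726 and 753 CPM in the UVB-Saline libraries and 913, 921 and 818 CPM in the NoUVB libraries. The highest library and the second and the third lowest were all UVB-Saline, and the 3 groups overlapped. The means were 855 ± 187 CPM in UVB-hCOL3A1, 891 ± 263 CPM in UVB-Saline and 884 ± 57.5 CPM in NoUVB (SD, n = 3 each). The log2 ratio of the means was -0.06 for UVB-hCOL3A1 against UVB-Saline, 0.01 for UVB-Saline against NoUVB and -0.05 for UVB-hCOL3A1 against NoUVB. The SD was wider in both irradiated groups than in NoUVB, a difference in spread that was not tested. In bulk skin, fewer dividing cells and less histone mRNA per cell cannot be told apart.

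**Figure D1:**
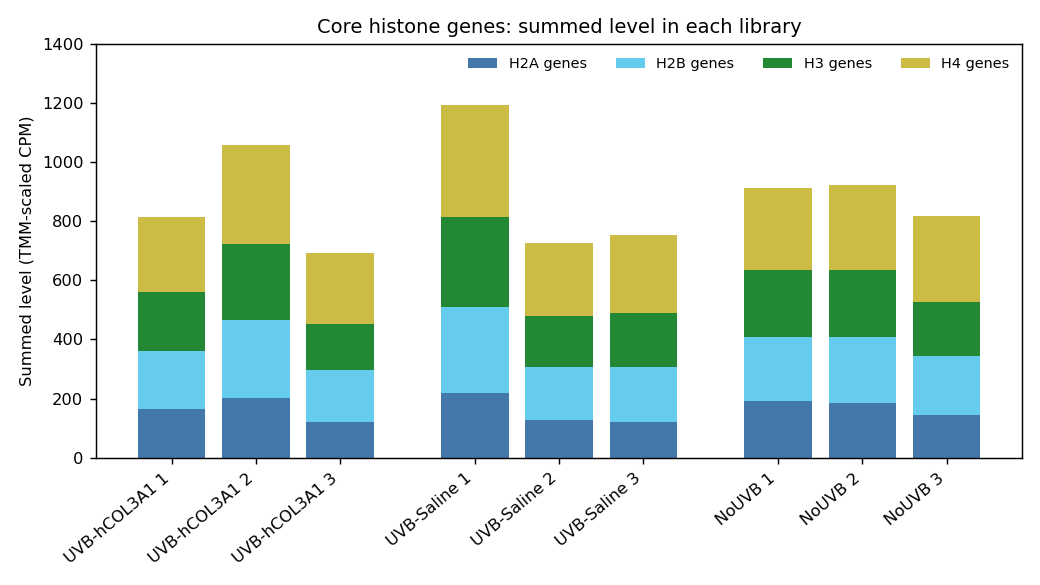
Stacked bars show the summed TMM-scaled CPM of the 64 core histone genes in each of the 9 libraries, split into H2A, H2B, H3 and H4 genes. UVB-Saline 1 stands highest at 1195 CPM and UVB-hCOL3A1 3 lowest at 692 CPM, and the 4 colours keep similar proportions in every bar.

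The 4 classes kept similar proportions, with some exceptions. H2A genes held 15.9% to 20.8% of the summed level, H2B genes 23.8% to 25.03%, H3 genes 22.3% to 25.5% and H4 genes 30.4% to 35.7%. UVB-Saline 1 was the highest library for each class. UVB-hCOL3A1 3 was the lowest for H2B, H3 and H4, and UVB-Saline 3 was the lowest for H2A. NoUVB 3 was the highest library of its group for H4, at 292 CPM, but the lowest of its group for H2A, H2B and H3. By group, the H2A share ran from 17.7% to 20.3% in UVB-hCOL3A1, from 15.9% to 18.2% in UVB-Saline and from 17.8% to 20.8% in NoUVB, so the groups overlapped.

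Single members followed the same order of libraries. UVB-Saline 1 was the highest of the 9 libraries in 36 of 54 tested members (66.7%), against 13.7% of all genes tested, and 53 of 54 were above their own mean there. UVB-hCOL3A1 2 was the highest in 11 members and above their mean in 46. UVB-hCOL3A1 3 was the lowest in 18 members, and 3 of 54 were above their mean there. Within groups, UVB-Saline 1 led its group in 50 of 54 members, and UVB-hCOL3A1 2 led and UVB-hCOL3A1 3 trailed theirs in 43 of 54 each. Members share reads, libraries and scaling, so they are not separate evidence for this order. Of the 12 tested members with under 5% of windows shared, only H4c16 had whole-number counts in all 9 libraries. Reads of the others may thus be divided between genes in part. Among these 12 members, the order was much the same. Their sums were 171, 227 and 152 CPM in UVB-hCOL3A1, 249, 164 and 157 CPM in UVB-Saline and 186, 202 and 189 CPM in NoUVB, and UVB-Saline 1 was the highest library in 7 of 12.

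**Figure D2:**
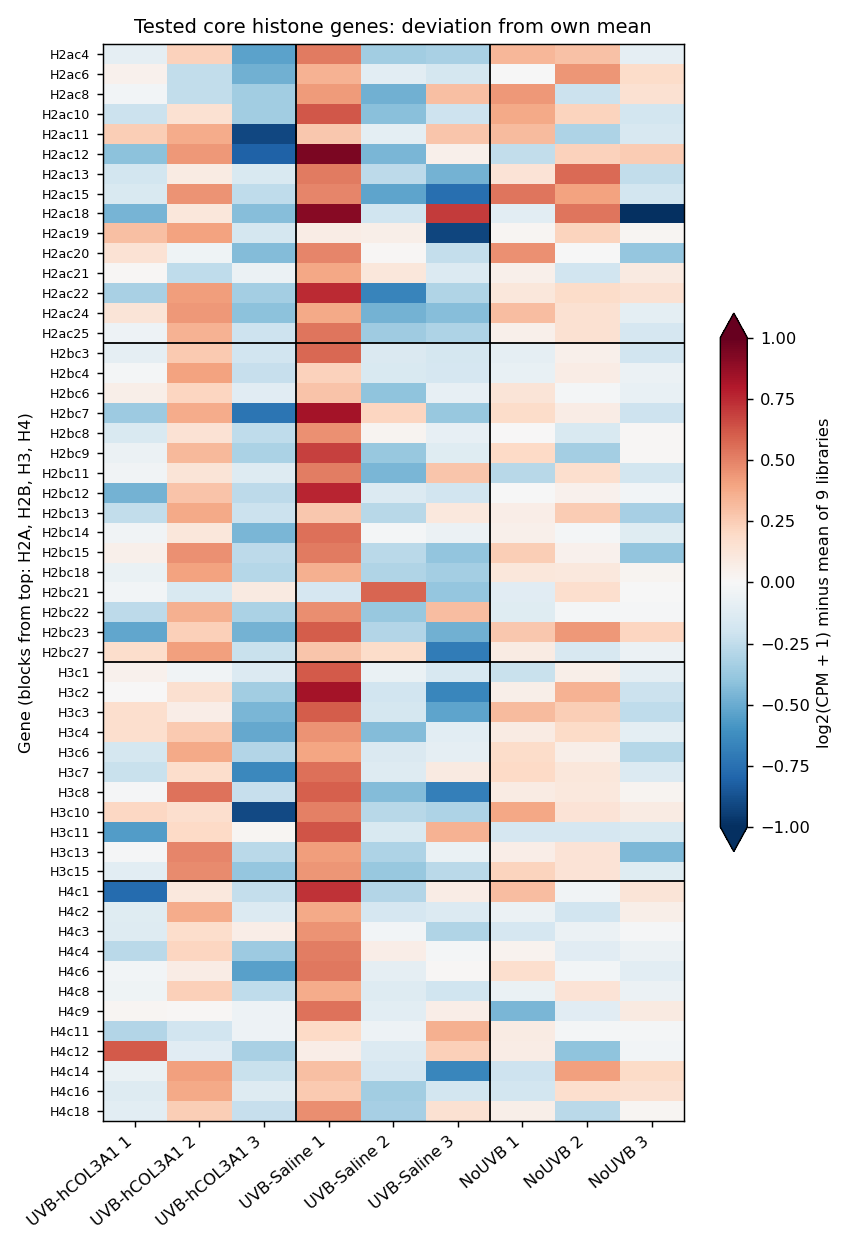
Each row is 1 of the 54 tested core histone genes, each column a library, and colour gives log2(CPM + 1) minus the gene's mean over 9 libraries, red above and blue below, with values past 1 either way drawn in the end colours. UVB-Saline 1 is red in 53 of 54 rows and UVB-hCOL3A1 3 is blue in all but 3. Both irradiated groups hold libraries of both kinds, while the NoUVB libraries are more mixed, with 37, 34 and 18 of 54 rows red.

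Ribosomal content also varied between libraries. 18S ribosomal RNA took 42.7%, 42.5% and 45.1% of the counts in UVB-hCOL3A1, 36.9%, 34.3% and 44.7% in UVB-Saline and 55.3%, 7.71% and 37.7% in NoUVB. Counts left without it numbered 4274106 to 7402229 per library. The histone genes were also scaled to the counts without 18S and other ribosomal RNA genes. They then summed to 1442, 1807 and 1155 CPM in UVB-hCOL3A1, 1989, 1248 and 1178 CPM in UVB-Saline and 1504, 1463 and 1271 CPM in NoUVB, again with UVB-Saline 1 highest and UVB-hCOL3A1 3 lowest. NoUVB 2, with by far the least 18S, had the highest histone sum of its group before that rescaling (921 CPM) and the second highest after it. The part of 18S content in the histone levels was not tested. The labels name total RNA and do not say whether poly(A) RNA was selected or ribosomal RNA removed, which bears on mRNAs that lack a tail. Also examined were 24 abundant RNAs without a poly(A) tail, 18S included. Without 18S they summed to 75902 to 138743 CPM per library. Of 23 tested, 0 were called by edgeR in any comparison (all genes 0% to 0.0408%). At an unadjusted p under 0.05, 0 were higher and 8 lower in UVB-hCOL3A1 against UVB-Saline (all genes 5.97% and 5.32%). The same held against NoUVB (all genes 6.29% and 5.52%). In UVB-Saline against NoUVB 6 were higher and 1 lower (all genes 4.93% and 4.6%).

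Of the H2A genes, H2ac24, H2ac19 and H2ac10 had the most counts. H2ac24 had 57.3, 71.0 and 39.02 CPM in UVB-hCOL3A1, 68.2, 37.4 and 38.6 CPM in UVB-Saline and 65.0, 58.2 and 48.6 CPM in NoUVB. Only its UVB-Saline 1 value stood apart from the other UVB-Saline libraries, and the groups overlapped (0.22 ± 0.28, log2 fold change ± SE, for UVB-hCOL3A1 against UVB-Saline, edgeR adjusted p = 0.822). H2ac19 had 42.0, 45.1 and 29.8 CPM in UVB-hCOL3A1, 35.7, 35.4 and 17.4 CPM in UVB-Saline and 34.3, 39.6 and 34.2 CPM in NoUVB. It gave the smallest p among members with a positive value for UVB-hCOL3A1 against UVB-Saline (0.40 ± 0.26, edgeR adjusted p = 0.604), and UVB-Saline against NoUVB was -0.29 ± 0.26 (edgeR adjusted p = 0.781). H2ac10 had 12.3, 16.1 and 11.1 CPM in UVB-hCOL3A1, 22.7, 10.5 and 12.4 CPM in UVB-Saline and 19.002, 17.0 and 12.6 CPM in NoUVB, with the groups overlapping.

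H2ac18 and H2ac19 are 2 copies with many shared windows. All windows of H2ac19 and 87.0% of those of H2ac18 are found in another gene, each other and the predicted gene Gm20634 among them. H2ac18 had 4.40, 7.08 and 4.55 CPM in UVB-hCOL3A1, 13.04, 5.49 and 11.1 CPM in UVB-Saline and 5.93, 9.80 and 2.61 CPM in NoUVB, a log2 fold change of -0.88 ± 0.47 for UVB-hCOL3A1 against UVB-Saline (edgeR adjusted p = 0.518). That value has the opposite sign to that of H2ac19, and the part of shared reads in this was not tested. Added together, the 2 copies had 46.4, 52.2 and 34.3 CPM in UVB-hCOL3A1, 48.7, 40.8 and 28.5 CPM in UVB-Saline and 40.2, 49.4 and 36.8 CPM in NoUVB, a log2 ratio of means of 0.17 for UVB-hCOL3A1 against UVB-Saline. The pair was singled out after its values were seen, and the sum leaves out Gm20634.

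H2ac6 and H2ac15 each had the smallest p among members with a negative value in 1 of the comparisons with NoUVB. H2ac6 had 2.99, 2.26 and 1.78 CPM in UVB-hCOL3A1, 3.92, 2.60 and 2.44 CPM in UVB-Saline and 2.88, 4.26 and 3.40 CPM in NoUVB, so that UVB-hCOL3A1 against NoUVB was -0.57 ± 0.29 (edgeR adjusted p = 0.477). The groups overlapped through UVB-hCOL3A1 1. H2ac15, which shares no window, had 11.7, 18.3 and 10.9 CPM in UVB-hCOL3A1, 18.9, 8.82 and 7.39 CPM in UVB-Saline and 19.5, 17.8 and 11.5 CPM in NoUVB. Its UVB-Saline libraries lay apart from each other, and UVB-Saline against NoUVB was -0.47 ± 0.37 (edgeR adjusted p = 0.744).

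Of the H2B genes, H2bc18, H2bc4 and H2bc3 had the most counts. H2bc18 had 45.8, 63.6 and 39.1 CPM in UVB-hCOL3A1, 61.5, 38.7 and 37.8 CPM in UVB-Saline and 52.0, 51.6 and 49.0 CPM in NoUVB. The NoUVB libraries were close together and lay inside the range of both irradiated groups. H2bc4 had 27.6, 37.3 and 23.7 CPM in UVB-hCOL3A1, 33.0, 25.1 and 24.8 CPM in UVB-Saline and 26.4, 29.5 and 26.8 CPM in NoUVB, and its interval for UVB-Saline against NoUVB was -0.38 to 0.38 (95%, log2). H2bc3 had 21.0, 27.1 and 19.5 CPM in UVB-hCOL3A1, 33.9, 20.3 and 19.8 CPM in UVB-Saline and 21.0, 23.3 and 19.5 CPM in NoUVB, with UVB-Saline 1 alone above the rest.

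H2bc23 and H2bc27 differed in sign for UVB-hCOL3A1 against NoUVB. H2bc23, which shares 92.4% of its windows, had 4.11, 7.62 and 4.28 CPM in UVB-hCOL3A1, 10.2, 4.98 and 4.26 CPM in UVB-Saline and 7.85, 8.91 and 7.51 CPM in NoUVB (-0.60 ± 0.34, edgeR adjusted p = 0.533). H2bc27, which shares none, had 1.42, 1.86 and 0.841 CPM in UVB-hCOL3A1, 1.60, 1.443 and 0.325 CPM in UVB-Saline and 1.28, 0.927 and 1.06 CPM in NoUVB (0.41 ± 0.51, edgeR adjusted p = 0.798). The groups overlapped for both genes.

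Of the H3 genes, H3c13, H3c15 and H3c10 had the most counts. H3c13 had 36.4, 51.9 and 30.4 CPM in UVB-hCOL3A1, 49.6, 29.6 and 35.0 CPM in UVB-Saline and 38.5, 40.6 and 26.7 CPM in NoUVB. H3c15, also on chromosome 3, had 28.7, 43.4 and 23.5 CPM in UVB-hCOL3A1, 42.6, 23.7 and 25.5 CPM in UVB-Saline and 36.3, 34.3 and 28.4 CPM in NoUVB. Both were highest in UVB-hCOL3A1 2 and UVB-Saline 1. H3c10 had 28.6, 27.7 and 12.7 CPM in UVB-hCOL3A1, 35.3, 20.1 and 19.7 CPM in UVB-Saline and 32.4, 27.1 and 26.1 CPM in NoUVB, with UVB-hCOL3A1 3 lowest.

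H3c11 was the only member whose UVB-Saline and NoUVB groups did not overlap (1 of 54 higher and 0 lower; all genes 7.15% higher and 6.59% lower). It had 13.3, 23.1 and 20.3 CPM in UVB-hCOL3A1, 31.4, 17.9 and 25.6 CPM in UVB-Saline and 17.7, 17.6 and 17.8 CPM in NoUVB. The lowest UVB-Saline library lay just above the highest NoUVB library. The fold change of UVB-Saline against NoUVB was 0.49 ± 0.23 (edgeR adjusted p = 0.556), and 52.7% of the windows of H3c11 are shared.

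Of the H4 genes, H4c16, H4c4 and H4c18 had the most counts. H4c16, for which reads could be placed, had 51.9, 74.0 and 51.8 CPM in UVB-hCOL3A1, 68.4, 44.4 and 49.9 CPM in UVB-Saline and 49.9, 63.9 and 63.1 CPM in NoUVB. Its 95% interval was -0.30 to 0.56 for UVB-hCOL3A1 against UVB-Saline and -0.56 to 0.31 for UVB-Saline against NoUVB (log2). H4c4, which shares no window, had 28.6, 40.6 and 26.8 CPM in UVB-hCOL3A1, 49.99, 36.5 and 34.3 CPM in UVB-Saline and 35.6, 32.1 and 33.3 CPM in NoUVB. Its groups overlapped, and UVB-hCOL3A1 against UVB-Saline was -0.33 ± 0.18 (edgeR adjusted p = 0.518). H4c18 had 31.1, 39.9 and 28.4 CPM in UVB-hCOL3A1, 46.5, 26.3 and 37.3 CPM in UVB-Saline and 34.8, 27.6 and 33.9 CPM in NoUVB, and H4c17, at 0, shares most of its windows with it.

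H4c11, which carries a stem-loop form found in 2 members, was the 1 member of 54 with an unadjusted p under 0.05 in UVB-hCOL3A1 against UVB-Saline (1 lower and 0 higher; all genes 5.32% lower and 5.97% higher). It had 5.10, 5.54 and 6.22 CPM in UVB-hCOL3A1, 7.59, 6.20 and 8.55 CPM in UVB-Saline and 6.90, 6.39 and 6.36 CPM in NoUVB. The fold change against UVB-Saline was -0.40 ± 0.17 (edgeR adjusted p = 0.428), with UVB-hCOL3A1 3 and UVB-Saline 2 at almost the same level. In that comparison the groups of every member overlapped (0 of 54 higher and 0 lower; all genes 8.97% higher and 8.4% lower). UVB-hCOL3A1 did not overlap NoUVB in H4c11, the only such member (1 of 54 lower and 0 higher; all genes 10.7% in each direction), at -0.22 ± 0.18 (edgeR adjusted p = 0.664). No member had an unadjusted p under 0.05 in the comparisons with NoUVB, where 4.93% of all genes were higher and 4.6% lower for UVB-Saline, and 6.29% higher and 5.52% lower for UVB-hCOL3A1.

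Among the remaining named H4 genes, H4c9 had 7.15, 7.10 and 6.75 CPM in UVB-hCOL3A1, 10.7, 6.45 and 7.40 CPM in UVB-Saline and 4.84, 6.44 and 7.56 CPM in NoUVB. UVB-Saline 1 was again the highest, and UVB-Saline against NoUVB was 0.36 ± 0.22 (edgeR adjusted p = 0.663). H4c12 had 14.3, 8.27 and 6.99 CPM in UVB-hCOL3A1, 9.46, 8.12 and 10.8 CPM in UVB-Saline and 9.54, 6.56 and 8.84 CPM in NoUVB, and it was the only tested member highest in UVB-hCOL3A1 1.

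Fold changes of the 54 tested members ran from -0.96 to 0.40 for UVB-hCOL3A1 against UVB-Saline, from -0.47 to 0.67 for UVB-Saline against NoUVB and from -0.61 to 0.41 for UVB-hCOL3A1 against NoUVB (log2). Their medians were -0.13, 0.09 and -0.04, beside -0.02, 0.01 and -0.01 over all genes tested. Values above 0 were seen in 17 of 54 (31.5%; all genes 46.1%), 34 of 54 (63.0%; all genes 51.8%) and 22 of 54 (40.7%; all genes 49.2%), in the same order. H2A genes did not follow the others in UVB-Saline against NoUVB: 5 of 15 were above 0, against 13 of 16 H2B, 6 of 11 H3 and 10 of 12 H4 genes, a difference between classes that was not tested. UVB-Saline 1 carried the median of the tested members, which without it was 0.16 for UVB-hCOL3A1 against UVB-Saline and -0.17 for UVB-Saline against NoUVB. Between the highest and the lowest library, the 53 tested members above 0 in every library differed 1.53-fold to 5.72-fold, with a median of 2.20-fold. H2ac12, listed at 0 in UVB-hCOL3A1 3, was the exception. It had the widest intervals and the lowest fold change of the 54 in both comparisons of UVB-hCOL3A1.

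The libraries bounded changes of the family only in part. A median member had a standard error of 0.27 in each comparison, and its 95% interval reached 0.61 or 0.62 to either side of the estimate (log2). The interval lay inside a 2-fold change either way in 39 of 54 members for UVB-hCOL3A1 against UVB-Saline (72.2%; all genes 71.1%), in 41 for UVB-Saline against NoUVB (75.9%; all genes 71.1%) and in 38 for UVB-hCOL3A1 against NoUVB (70.4%; all genes 70.6%). Changes within these intervals were not excluded. The intervals are not limits of detection, since a call also depended on the adjustment over all genes tested. A missing call does not show that the groups were alike.

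**Figure D3:**
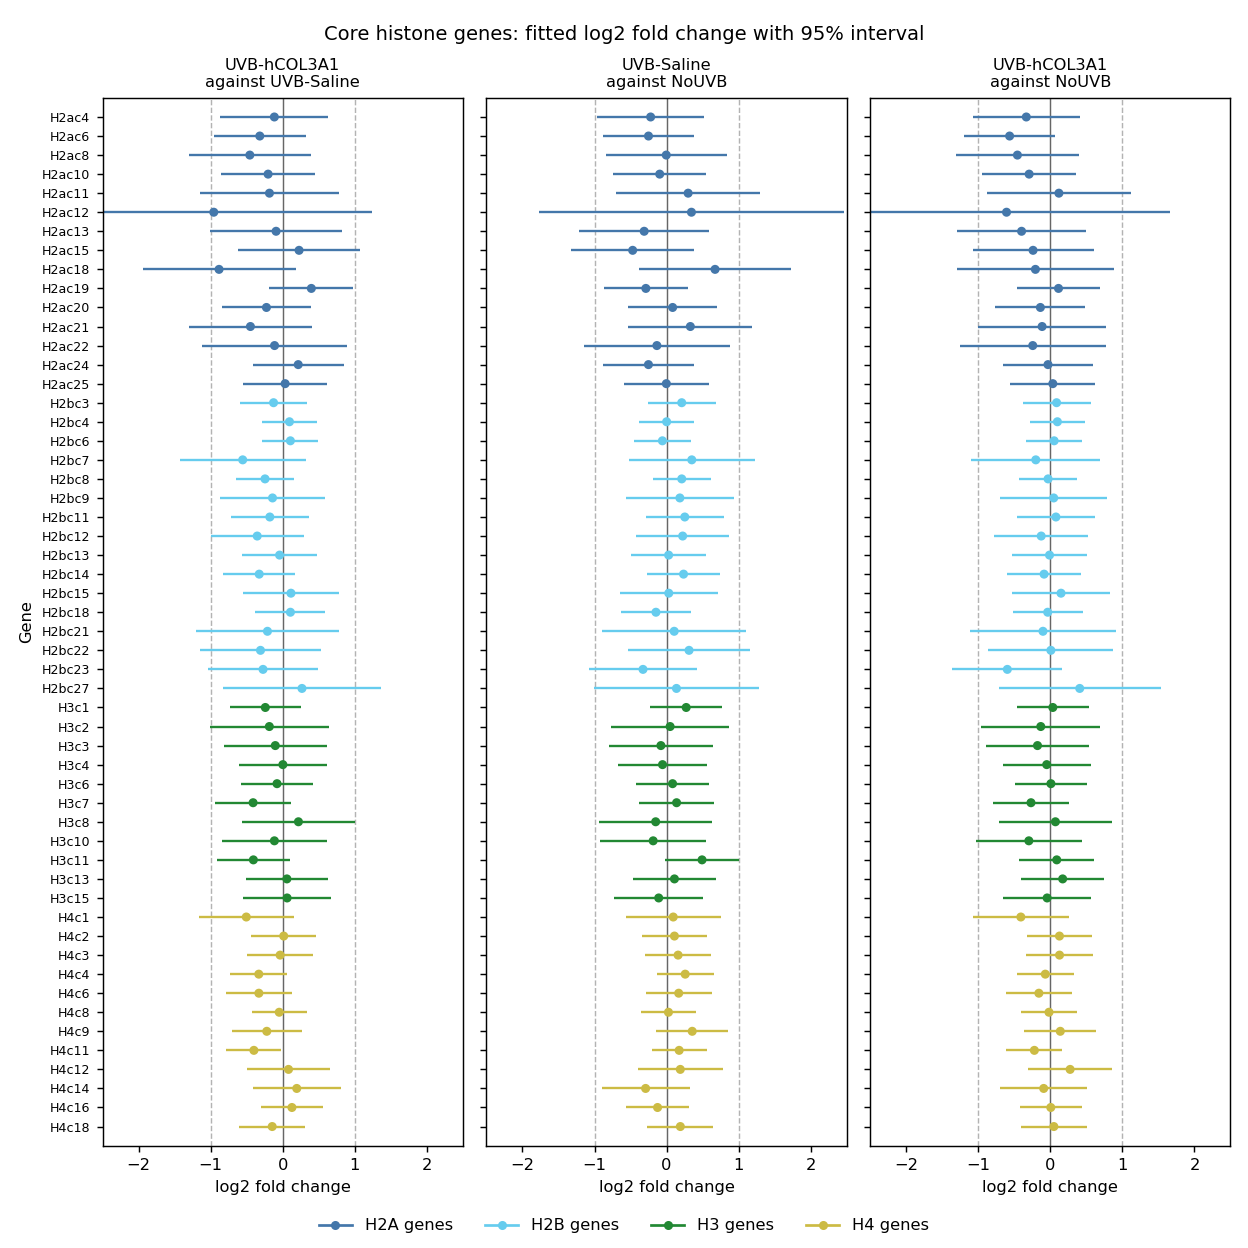
Points are fitted log2 fold changes of the 54 tested core histone genes in the 3 comparisons, lines are 95% intervals (those of H2ac12 run past the axis in both UVB-hCOL3A1 comparisons), and dashed lines mark a 2-fold change either way. All intervals but that of H4c11 in UVB-hCOL3A1 against UVB-Saline include 0.

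Genes that work with the replication-dependent histones gave 0 calls in each comparison by edgeR. Few of all genes were called either (0% to 0.0408%), so this does not set these genes apart. The 5 linker histone genes H1f1 to H1f5, whose products bind DNA between the spools, summed to 340, 344 and 232 CPM in UVB-hCOL3A1, 372, 270 and 278 CPM in UVB-Saline and 315, 360 and 297 CPM in NoUVB. As with the core histones, UVB-Saline 1 was highest and UVB-hCOL3A1 3 lowest. The 11 replication-independent variants, most of which are made throughout the cell cycle and are polyadenylated, varied less as a sum, 1.26-fold between the extreme libraries against 1.73-fold for the core genes. Their sums were 411, 443 and 378 CPM in UVB-hCOL3A1, 476, 437 and 415 CPM in UVB-Saline and 436, 438 and 410 CPM in NoUVB. In UVB-Saline against NoUVB, 1 of the 11, Cenpa, was higher at an unadjusted p under 0.05 and 0 lower (all genes 4.93% and 4.6%). Its fold change was 0.72 ± 0.19 (edgeR adjusted p = 0.319).

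Of the 20 tested genes for histone mRNA synthesis, processing and decay, 1 was higher and 3 lower at an unadjusted p under 0.05 in UVB-hCOL3A1 against UVB-Saline (all genes 5.97% higher and 5.32% lower). In UVB-Saline against NoUVB 1 was higher and 0 lower (all genes 4.93% and 4.6%), and in UVB-hCOL3A1 against NoUVB 1 was higher and 2 lower (all genes 6.29% and 5.52%). Slbp, which encodes the stem-loop binding protein, had 13.9, 12.5 and 13.1 CPM in UVB-hCOL3A1, 15.5, 11.02 and 14.7 CPM in UVB-Saline and 10.5, 10.9 and 13.2 CPM in NoUVB. Its fold change for UVB-Saline against NoUVB was 0.25 ± 0.16 (edgeR adjusted p = 0.671), with overlapping groups. The 18 histone chaperone genes encode proteins that hand histones to DNA. At an unadjusted p under 0.05, 0 of them were higher and 2 lower in UVB-hCOL3A1 against UVB-Saline (all genes 5.97% and 5.32%). UVB-hCOL3A1 against NoUVB gave the same counts (all genes 6.29% and 5.52%). UVB-Saline against NoUVB gave 0 in each direction (all genes 4.93% higher and 4.6% lower).

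Cell cycle genes followed the same order of libraries in part. The 39 S phase genes summed to 527, 536 and 476 CPM in UVB-hCOL3A1, 664, 476 and 597 CPM in UVB-Saline and 547, 495 and 509 CPM in NoUVB. The 22 mitotic genes summed to 679, 645 and 542 CPM in UVB-hCOL3A1, 957, 583 and 792 CPM in UVB-Saline and 656, 574 and 591 CPM in NoUVB. UVB-Saline 1 was the highest library for both lists and UVB-hCOL3A1 3 the lowest. UVB-Saline 3 was second highest for both lists, but its histone sum of 753 CPM was the third lowest. In UVB-Saline against NoUVB, 21 of 22 mitotic genes had values above 0 with a median of 0.48, and 33 of 39 S phase genes with a median of 0.22, beside 34 of 54 and 0.09 for core histone genes. At an unadjusted p under 0.05, 11 mitotic, 2 S phase and 0 histone genes were higher there and 0 of each lower (all genes 4.93% higher and 4.6% lower). In UVB-hCOL3A1 against UVB-Saline, 3 of 22 mitotic genes had values above 0 with a median of -0.30, and 4 of 39 S phase genes with a median of -0.18, beside 17 of 54 and -0.13 for core histone genes. At an unadjusted p under 0.05, 6 mitotic genes, 2 S phase genes and 1 histone gene were lower there and 0 of each higher (all genes 5.32% lower and 5.97% higher). In UVB-hCOL3A1 against NoUVB, 1 mitotic gene was higher and 1 lower, with 0 S phase genes either way (all genes 6.29% higher and 5.52% lower). Aurka, which encodes a mitotic kinase, had 5.44, 4.36 and 7.70 CPM in UVB-Saline and 2.699, 2.32 and 3.66 CPM in NoUVB (1.00 ± 0.27, edgeR adjusted p = 0.319).

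Levels of markers of skin compartments varied between libraries too. The 9 hair matrix and sheath markers, from a part of the follicle rich in dividing cells, summed to 5632, 5966 and 2452 CPM in UVB-hCOL3A1, 8545, 5249 and 1176 CPM in UVB-Saline and 11346, 9443 and 5911 CPM in NoUVB. All 9 were tested and 0 were called in any comparison (all genes 0% to 0.0408%). UVB-hCOL3A1 3 and UVB-Saline 3, low for these markers, were also low for histones, but NoUVB 1, the highest for them, was not the highest for histones. The 10 epidermal keratinocyte markers were detected throughout, at a sum of 4525 to 9172 CPM. They summed to 5310, 5539 and 7430 CPM in UVB-hCOL3A1, 6076, 8434 and 9172 CPM in UVB-Saline and 4525, 5085 and 6655 CPM in NoUVB. The 9 macrophage and myeloid markers summed to 604, 691 and 878 CPM in UVB-hCOL3A1, 284, 492 and 696 CPM in UVB-Saline and 460, 472 and 474 CPM in NoUVB, lowest in UVB-Saline 1. The 6 adipocyte markers summed to 556, 958 and 552 CPM in UVB-hCOL3A1, 326, 443 and 299 CPM in UVB-Saline and 611, 1073 and 419 CPM in NoUVB, so that UVB-Saline lay below UVB-hCOL3A1 and overlapped NoUVB. In UVB-hCOL3A1 against UVB-Saline, 4 of 6 adipocyte, 5 of 7 fibroblast, 4 of 9 macrophage and myeloid and 2 of 6 endothelial markers were higher at an unadjusted p under 0.05 and 0 of each lower (all genes 5.97% higher and 5.32% lower). Of the other lists, 1 of 10 keratinocyte markers was lower and 1 of 7 sebaceous gland markers higher there. In UVB-Saline against NoUVB, 5 of 6 adipocyte, 2 of 7 fibroblast and 3 of 6 endothelial markers were lower and 0 of each higher (all genes 4.6% lower and 4.93% higher). Of 10 keratinocyte markers, 2 were higher and 2 lower there. Higher there were also 1 of 9 macrophage and myeloid and 1 of 7 sebaceous gland markers. In UVB-hCOL3A1 against NoUVB, 4 of 9 macrophage and myeloid markers were higher and 2 of 10 keratinocyte and 1 of 6 adipocyte markers lower. In that comparison, 1 marker each of the sebaceous gland, lymphocyte and skeletal muscle lists was higher (all genes 6.29% higher and 5.52% lower). No marker of these lists or of the sebaceous gland, lymphocyte and skeletal muscle lists passed the edgeR test in any comparison (all genes 0% to 0.0408%), with 0.0854 as the smallest adjusted p. The part of cell composition in the histone levels was not tested.

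**Figure D4:**
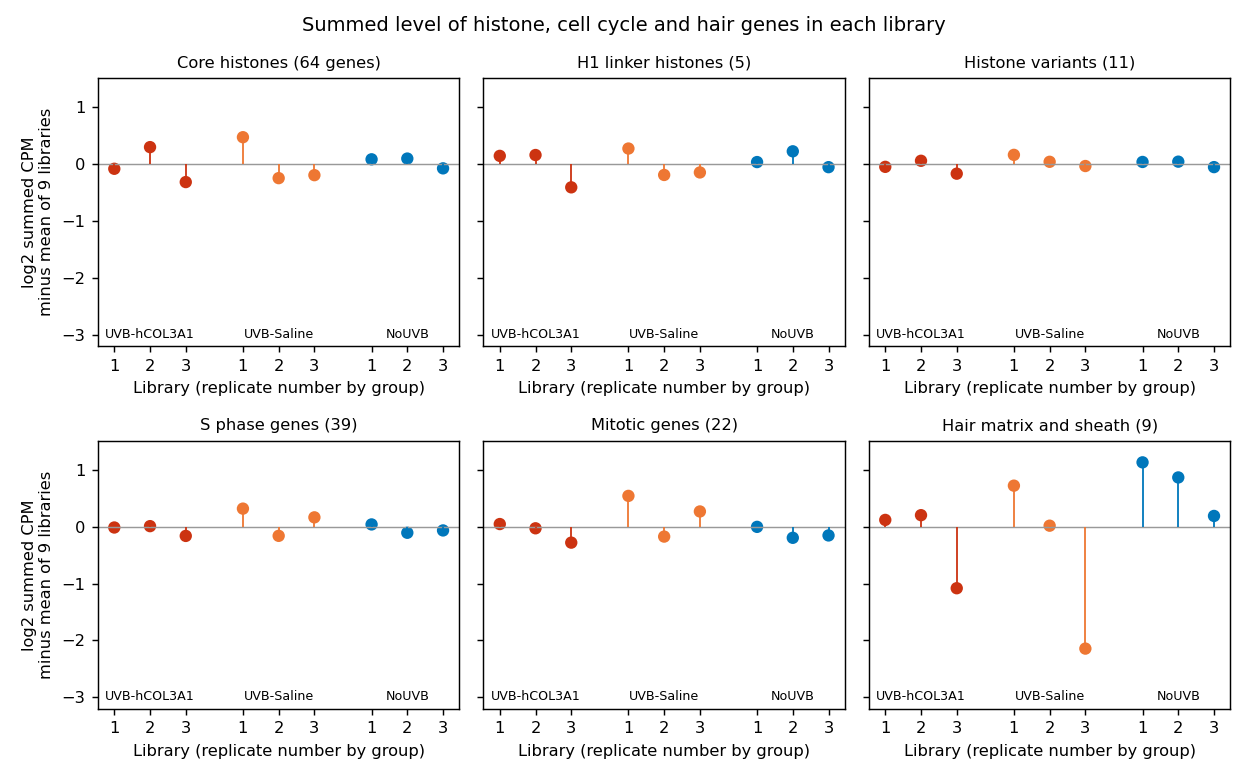
Each panel shows 1 gene list, with the log2 summed CPM of each library minus the mean of the 9 libraries, by group and replicate number. UVB-Saline 1 is the highest library for core histones (1195 CPM), linker histones (372 CPM), S phase genes (664 CPM) and mitotic genes (957 CPM), while hair matrix and sheath markers are highest in NoUVB 1 (11346 CPM) and lowest in UVB-Saline 3 (1176 CPM).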

How the data were processed

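RNA of mouse skin was sequenced as paired 150 bp reads from TRIzol-extracted total RNA, per the labels' protocols. Per the submitters' processing notes, tools included RSEM 1.3.3, STAR 2.7.11b, Bowtie2 2.5.4, DESeq2 1.44.0 and fastp 0.23.4, with build GRCm39. The sources used here give no annotation release, strand setting or library selection, so reads of overlapping genes may not be separable. Of the windows of H2ac25, 28.0% are shared with Trim17 on the same strand, where a strand setting would not help. All 9 libraries have 1 batch label.

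The authors deposited expected counts for 57180 genes, with 11.1% to 14.0% of values per library not whole. They were rounded. The 525 rows without a symbol held 0.0384% of the counts. Totals were 7640172 to 12927411 per library. No libraries were identical, and chi-square per degree of freedom between replicates was 8.18 to 250.05.

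All 9 libraries entered 1 fit in edgeR 4.0.16 (R 4.3.3): filterByExpr, which left 17168 genes, TMM, robust quasi-likelihood (6 residual degrees of freedom, biological coefficient of variation 0.193), two-sided tests, Benjamini-Hochberg over all genes tested, threshold 0.05. CPM is TMM-scaled. Named were, per class, the 3 members with the most CPM and, per comparison and direction, the 2 with the smallest p, and up to 4 genes per other list. The members and gene lists were chosen with earlier results of these data known. DESeq2 1.42.0, limma 3.58.1 (voom), other scalings and filters, a replicate block and leaving out each library were alternatives.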

Additional observations from a re-analysis of the deposited data

How the results depend on the processing

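With no filter, other filters and scalings, DESeq2, limma voom, fits of only the groups compared and each library left out, 0 histone members were called in each comparison, and no summed level or median moved by more than the spread between libraries. Leaving out 1 library moved the median of the tested members between -0.28 and 0.16 for UVB-hCOL3A1 against UVB-Saline, -0.17 and 0.20 for UVB-Saline against NoUVB, and -0.22 and 0.09 for UVB-hCOL3A1 against NoUVB. The log2 ratios of the sums ranged likewise from -0.24 to 0.21, -0.26 to 0.13 and -0.23 to 0.10, so their signs rest on single libraries, UVB-Saline 1 among them. Restricting the sum to the 12 members with under 5% of windows shared, chosen after seeing the data, gave -0.05, -0.01 and -0.06.

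Whether replicate numbers in the labels pair the libraries is not stated. Levels were centred on each group's mean before libraries of different groups were correlated. Correlations of the 9 same-numbered pairs of libraries were all positive, from 0.0144 to 0.4747, but not all were over 0.1. Of 18 pairs with other numbers, 12 were negative. The centring ties these values together, so the negative ones follow in part from the positive ones and are not separate evidence of pairing. For 5 of 9 libraries the closest library of another group had the same number. With the number as a replicate block, 0 members were called. Calls over the 17168 genes tested were then 74, 61 and 118, against 0, 3 and 7 without it, for UVB-hCOL3A1 against UVB-Saline, UVB-Saline against NoUVB and UVB-hCOL3A1 against NoUVB. With so few calls, the 0 does not set the histone genes apart. DESeq2 called 173, 100 and 269 genes in that order, edgeR without a filter 106, 73 and 178, and voom 0, 2 and 0. The cause was not tested. Over all alternatives for named members, the smallest adjusted p was 0.244. Members near 1 CPM rest on few counts, and changes over 2-fold are bounded in most but not all members.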
